A study of Mus musculus with 21 samples.

Results

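Hog dust extract (HDE) is an aqueous, sterile-filtered extract of dust collected in swine confinement buildings, and it was given here to mice by the nose. The libraries described are the 10 of 21 in the series that came from mice without the tobacco nitrosamine NNK, namely 4 of mice given HDE only and 6 of mice given saline only. They were chosen by the group label that each column of the raw count table carries. All 10 were A/J mice, an inbred strain that develops lung tumors readily, 8 to 12 weeks old at the start, which received 50 µL of 12.5% HDE or of saline intranasally 3 times a week for 24 weeks. By the sample labels the HDE only mice were 1 female and 3 males and the saline only mice 5 females and 1 male, so that sex and HDE can be told apart only in part. RNA came from the left lung, after lavage and removal of tumors, and is thus a mixture of all cells that remained in the lung. By the methods, mice without NNK received PBS by a single intraperitoneal injection in its place. The methods combine 2 experiments, and in the later one the mice that did not receive the resolvin AT-RvD1 were given its vehicle, ethanol in saline, by vein, but the sources used here do not say which of the 10 mice these were.

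RNA was counted with a nCounter panel for mouse immune and cancer genes, in which pairs of probes bind each transcript and color-coded molecules are counted without amplification. Each count was divided by the geometric mean of 4 housekeeping genes (Eef1g, Oaz1, Rpl19 and Sdha) in its library and multiplied by the mean of that factor over the series, which gives a scaled count. The panel has 770 genes, and 388 of them, with raw counts averaging 87 or more and leaving aside the 4 genes used for scaling, were tested. Log2 fold changes are HDE only minus saline only with their standard error (4 against 6 mice), and adjusted p values come from the quasi-likelihood test of edgeR after Benjamini-Hochberg adjustment over the 388 genes, where a gene rose or fell if its adjusted p was under 0.05. Total gene counts were 180995 to 529829 in the HDE only and 174604 to 493890 in the saline only libraries. Libraries were read in 2 runs. Run 1 held the HDE only libraries of lanes 10 and 12, and run 2 those of lanes 11 and 12, and the values of these 4 libraries are given below in this order. Run 1 also held 2 and run 2 held 4 of the saline only libraries, for which the lowest, median and highest value are given. The scaled mean of the 8 negative control probes was 33.1, 57.4, 7.05 and 14.5 in the HDE only libraries and 7.35 to 26.4 in the saline only libraries, so values under about 100 in the HDE only libraries of run 1 lay near background.

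Dust of swine barns carries cell wall products of bacteria and fungi. These are recognized by Toll-like receptors, of which Tlr4 with its partners Cd14 and Ly96 binds endotoxin and Tlr2 binds bacterial lipoproteins, and by C-type lectins such as Clec7a (dectin-1), which binds fungal glucans. Epithelial cells and macrophages that sense such products secrete chemokines, which call in monocytes, granulocytes and lymphocytes. The lung's resident phagocytes are the alveolar macrophages, which clear particles with scavenger receptors such as Marco, and lymphocytes that arrive under long exposure can gather around airways and vessels.

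In lungs of HDE only mice, 4 of 7 tested CC chemokines, 16 of 22 genes of macrophages and monocytes, 9 of 18 complement genes, 5 of 6 B cell genes and 10 of 15 leukocyte adhesion genes were higher than in lungs of saline only mice, whereas the scavenger receptor Marco and 9 of 22 endothelial genes were lower. Of the 388 genes, 117 rose (30.2%) and 17 fell (4.38%). A log2 fold change over 1 was found for 52 of the genes that rose and over 2 for 9 of them, but Marco alone fell by more than 1. All 4 HDE only libraries lay above all 6 saline only libraries for 61 genes (15.7%) and below them for 8 genes (2.06%). Other scalings changed the split of rises and falls, with 59 rises and 35 falls under TMM scaling and 86 and 66 with DESeq2's size factors, and these scalings moved the median over all genes of the log2 fold change from 0.16 to -0.17 and -0.06. Under TMM scaling 13 of the 22 macrophage and monocyte genes, 5 of the 18 complement genes, 5 of the 6 B cell genes and 8 of the 15 adhesion genes rose, and with positive control scaling 10, 2, 3 and 5 of them. Of the 388 genes 28 averaged under 87 scaled counts in the saline only libraries and reached the count minimum through other libraries, and 17 of the 117 rises and none of the falls are among these 28.

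**Figure D1:**
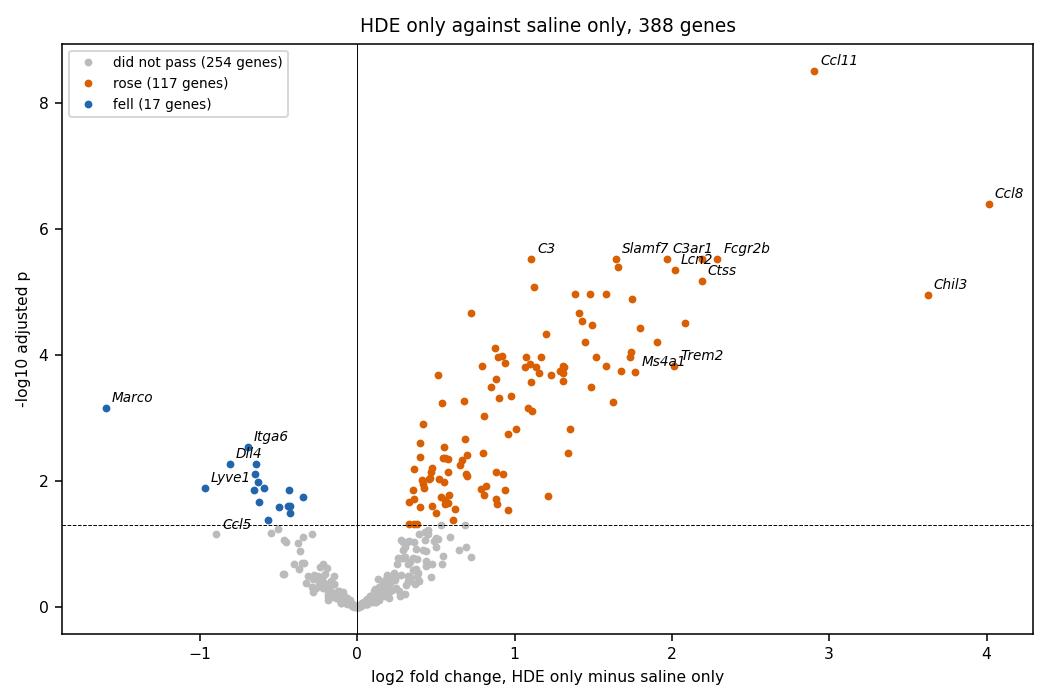
Each point is 1 of the 388 genes, with its log2 fold change (HDE only minus saline only) on the horizontal axis and the negative log10 of its adjusted p on the vertical axis, and the dashed line marks the threshold. Ccl8, Chil3 and Ccl11 lie farthest to the right and Marco farthest to the left, and 117 genes rose and 17 fell.

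The regions around the transcription starts of 4 genes are shown because 3 of them are the leading chemokine, the leading macrophage lectin and the leading protease among the rises, and the other, Marco, is the gene that fell most. The sequences are those of RefSeq (GRCm38.p6), 250 bases before to 50 bases after the start, in the direction of the gene. Matches to 3 patterns were searched on both strands, GGANNTTCC for NF-kB, GAGGAAGT for the myeloid factor PU.1 and TTCNNNGAA for STAT factors, and matches are in capitals. Matches of different patterns were counted separately, also where they could overlap. Ccl8 lies at chr11:82114935-82115234, plus strand, Chil3 at chr3:106167515-106167814, minus strand, Ctss at chr3:95526536-95526835, plus strand and Marco at chr1:120504975-120505274, minus strand.
Ccl8: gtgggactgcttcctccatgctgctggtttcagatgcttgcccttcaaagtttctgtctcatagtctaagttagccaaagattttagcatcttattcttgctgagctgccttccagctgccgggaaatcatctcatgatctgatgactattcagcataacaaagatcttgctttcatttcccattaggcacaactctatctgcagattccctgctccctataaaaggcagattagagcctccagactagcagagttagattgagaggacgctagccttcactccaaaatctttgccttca
Chil3: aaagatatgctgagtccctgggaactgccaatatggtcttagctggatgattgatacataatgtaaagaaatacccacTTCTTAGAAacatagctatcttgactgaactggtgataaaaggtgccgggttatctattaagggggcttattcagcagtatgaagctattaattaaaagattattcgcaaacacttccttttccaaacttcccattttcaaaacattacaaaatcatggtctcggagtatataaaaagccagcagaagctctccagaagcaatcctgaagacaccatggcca
Ctss: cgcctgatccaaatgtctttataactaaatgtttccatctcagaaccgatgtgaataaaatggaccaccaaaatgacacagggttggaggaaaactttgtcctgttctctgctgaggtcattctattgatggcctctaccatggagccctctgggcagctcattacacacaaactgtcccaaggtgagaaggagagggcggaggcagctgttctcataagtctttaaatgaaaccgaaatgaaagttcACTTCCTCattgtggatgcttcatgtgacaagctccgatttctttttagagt
Marco: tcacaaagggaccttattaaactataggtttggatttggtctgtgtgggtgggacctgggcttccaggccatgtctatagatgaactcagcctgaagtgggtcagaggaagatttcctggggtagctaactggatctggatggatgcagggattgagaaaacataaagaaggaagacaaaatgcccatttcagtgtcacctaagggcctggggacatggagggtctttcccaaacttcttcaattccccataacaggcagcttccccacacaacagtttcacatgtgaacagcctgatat
The capitals in Chil3 are the STAT letters, the capitals in Ctss are the PU.1 letters read on the other strand, and none of the 3 patterns was found in Ccl8 or Marco. The PU.1 letters were present in 5.88% of the 85 genes that rose and have an entry, in 4.81% of the 291 tested genes with an entry and in 3.69% of all 27025 entries. For the NF-kB letters the shares were 8.24%, 9.62% and 4.86%, and for the STAT letters 14.1%, 14.8% and 9.55%. A match is a stretch of letters and was not tested as a binding site.

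The CC chemokines attract leukocytes through receptors of the Ccr family. Of the 7 tested, 4 rose (57.1% against 30.2% over all genes) and none fell. Their median log2 fold change was 1.66 against 0.16 over all genes. Ccl8, an attractant of monocytes and other leukocytes, was counted at 2258, 1574, 1179 and 920.4 in the HDE only libraries and at 31.5, 93.1 and 129 (lowest, median and highest) in the saline only libraries. The groups did not overlap, and the rise was the largest of all genes (log2 fold change 4.02 ± 0.41, adjusted p = 4.1e-07). Ccl11 (eotaxin-1), which attracts eosinophils through Ccr3, was at 750.4, 744, 720.3 and 744 in HDE only and at 72, 95.9 and 147 in saline only mice. The 4 HDE only values were nearly equal, unlike those of Ccl8, and the rise had the smallest p of all genes (log2 fold change 2.90 ± 0.22, adjusted p = 3.1e-09).

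Ccl6 and Ccl9, a pair of chemokines of rodents that bind Ccr1, rose as well. Ccl6 was at 1904, 2490.4, 3214 and 959.5 in HDE only and at 382, 476 and 559.7 in saline only mice (log2 fold change 2.19 ± 0.26, adjusted p = 3.0e-06). Ccl9 was at 1447, 1466, 1199 and 726 against 311, 373 and 504 (log2 fold change 1.66 ± 0.21, adjusted p = 4.0e-06). The HDE only library of run 2 lane 12 held the lowest HDE only value of each, which still lay above all saline only libraries. Of the other 3 members, Ccl5, an attractant of T cells, had a log2 fold change of -0.89 ± 0.38 (adjusted p = 0.07), Ccl17, which attracts T cells of the type 2 kind, of 0.39 ± 0.31 (adjusted p = 0.39) and Ccl21a, which draws lymphocytes and dendritic cells to lymphoid tissue, of -0.19 ± 0.12 (adjusted p = 0.24). The remaining 14 CC chemokines of the panel, Ccl2 and Ccl24 among them, were under the count minimum. Ccr2, the receptor by which monocytes leave the bone marrow, was the only 1 of 4 tested chemokine receptors to rise, from 190 to 231 (median 212) in saline only to 581, 611, 342 and 303 in HDE only libraries (log2 fold change 1.11 ± 0.24, adjusted p = 7.7e-04).

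**Figure D2:**
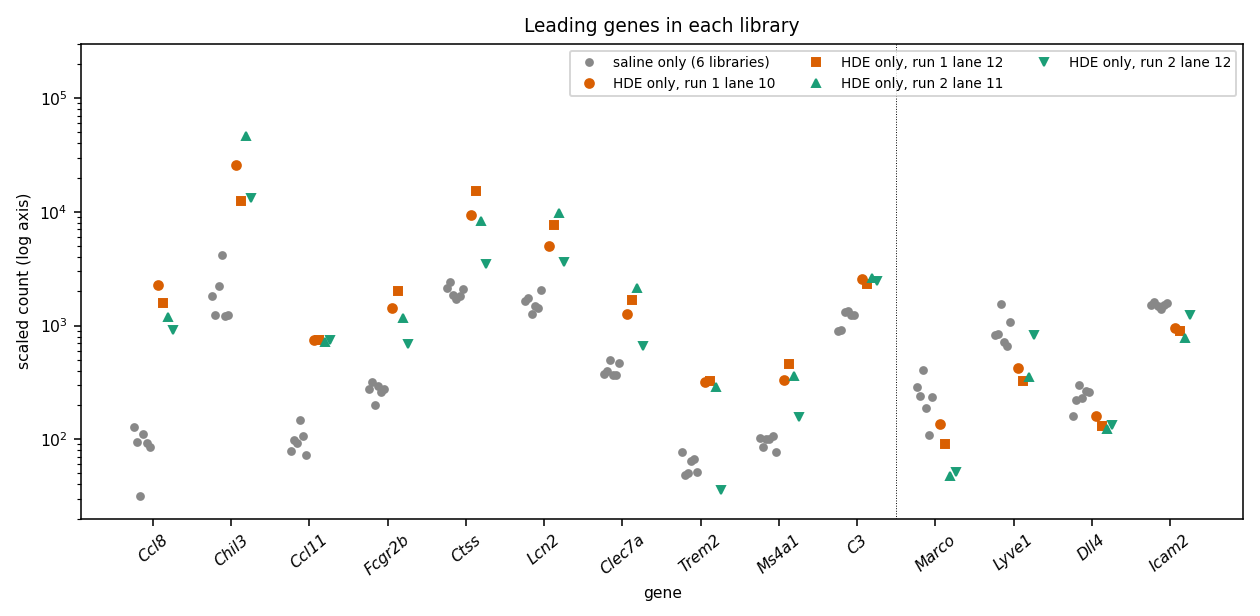
Scaled counts (log axis) of 14 genes in each library, with the 6 saline only libraries in grey, the HDE only libraries of run 1 in orange and those of run 2 in green. Genes left of the dotted line rose and those right of it fell. The HDE only library of run 2 lane 12 (green triangle pointing down) lies nearest to the saline only libraries for most genes, whereas for Ccl11 and C3 the 4 HDE only values are close to each other.

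Genes of macrophages and monocytes made up the largest group of rises. Of 22 tested, 16 rose and 2 fell, a share of rises of 72.7% against 30.2% over all genes, with a median log2 fold change of 1.12. However, 3 of the 22 averaged under 87 scaled counts in the saline only libraries and reached the count minimum through other libraries, and all 3 rose. The other 19 gave 13 rises and 2 falls. Chil3 (Ym1), a chitinase-like lectin secreted by macrophages in type 2 responses, was the most abundant gene of the group at 25966, 12412, 46091 and 13266 in HDE only and 1221, 1526 and 4145 in saline only libraries. All HDE only values exceeded the highest saline only value, and they spread from 12412 to 46091 (log2 fold change 3.63 ± 0.51, adjusted p = 1.1e-05). Msr1, the class A scavenger receptor, was at 201, 310.4, 169.9 and 65.9 against 37.1, 45.4 and 70.4 (log2 fold change 1.91 ± 0.31, adjusted p = 6.2e-05). Its lowest HDE only value, in run 2 lane 12, lay within the saline only range. Trem2, a receptor of macrophages for lipids and dying cells, was at 322, 323, 286 and 35.6 against 48.6, 57.6 and 76.6 (log2 fold change 2.02 ± 0.36, adjusted p = 1.5e-04). Here 3 HDE only libraries lay together above all saline only libraries, and run 2 lane 12 lay below all of them.

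Integrins and enzymes of phagocytes moved in the same direction. Itgam (CD11b), the alpha chain of complement receptor 3, was at 287, 386, 169.9 and 97.9 in HDE only and 50.7, 65.7 and 87.3 in saline only libraries (log2 fold change 1.74 ± 0.30, adjusted p = 1.1e-04). Itgax (CD11c), found on alveolar macrophages and dendritic cells, was at 382, 414, 419 and 109 against 85.7, 98.8 and 168 (log2 fold change 1.58 ± 0.28, adjusted p = 1.5e-04). The groups did not overlap for Itgam, and for Itgax run 2 lane 12 lay within the saline only range. Cybb, the catalytic subunit of the phagocyte oxidase, was at 2658, 2253, 2424 and 801 against 479.7, 551 and 942 (log2 fold change 1.67 ± 0.31, adjusted p = 1.8e-04), and run 2 lane 12 lay within the saline only range for it. Cd68, a lysosomal protein of macrophages, rose by 1.31 ± 0.24 (adjusted p = 2.0e-04), Emr1 (F4/80), a surface protein of mouse macrophages, by 1.14 ± 0.21 (adjusted p = 1.5e-04), and Mrc1, the mannose receptor, by 0.67 ± 0.17 (adjusted p = 0.0047). Csf1r, the receptor for the growth factor of macrophages, was at 422, 477, 382 and 313 against 286, 336 and 365 and did not pass (log2 fold change 0.28 ± 0.15, adjusted p = 0.16). Spp1 (osteopontin), a secreted matrix protein that macrophages make, rose by 1.10 ± 0.20 (adjusted p = 1.4e-04), and its values of 2352, 2367, 1294 and 1517 were higher in run 1 than in run 2 in the HDE only group.

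Marco, the scavenger receptor by which alveolar macrophages take up unopsonized particles, went the other way. It was counted at 135, 90.8, 47.2 and 51.6 in the HDE only and at 109, 237 and 402 in the saline only libraries. Of the HDE only values 3 were below all saline only values, and that of run 1 lane 10 lay within the saline only range. Marco was 3.02-fold lower (log2 fold change -1.59 ± 0.34, adjusted p = 6.9e-04), the largest fall of all genes. On the table with values under 87 raised to 87, which raises its lower HDE only values, the fall of Marco did not pass, at -0.77 (adjusted p = 0.058), or at -0.83 (adjusted p = 0.07) with the replicate number as a block. Within run 1 the log2 fold change of Marco was -1.20 and within run 2 -2.23, in fits without sex as a term. Together the 3 markers of alveolar macrophages on the panel (Marco, Siglec1 and Itgax) summed to 196 to 643 scaled counts in HDE only and to 236 to 565 in saline only mice, since Itgax rose while Marco fell and Siglec1 was under the count minimum. Cd36, a scavenger receptor for lipids that macrophages share with endothelium, fell by 0.43 on the log2 scale (adjusted p = 0.032), a call that was lost without any of 5 single libraries, the largest adjusted p being 0.16 without HDE only run 1 lane 12. In whole lung RNA, fewer cells of a type and less RNA per cell cannot be told apart, here and for the falls described further on.

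Receptors for microbial products rose in part. Of 19 tested, 11 rose (57.9% against 30.2% over all genes) and none fell, with a median log2 fold change of 0.53. However, 2 of the 19 averaged under 87 scaled counts in the saline only libraries and reached the count minimum through other libraries. These 2 rose, and the other 17 gave 9 rises. Under TMM scaling 6 of the 19 rose, with a median of 0.20, and with positive control scaling 3. In run 2 alone 6 rose and 1 fell. Clec7a was at 1257, 1668, 2146 and 666 in HDE only and at 365, 387 and 500.2 in saline only libraries, without overlap (log2 fold change 1.80 ± 0.28, adjusted p = 3.7e-05). Cd14, the coreceptor for endotoxin, was at 549, 656, 367 and 192 against 127, 161 and 180.2, again without overlap (log2 fold change 1.49 ± 0.23, adjusted p = 3.4e-05). Ly96 (MD-2), the part of the complex that holds endotoxin, and Ly86 (MD-1), its homolog that pairs with Cd180, rose by 0.90 ± 0.16 (adjusted p = 1.1e-04) and 1.52 ± 0.27 (adjusted p = 1.1e-04). Tlr4 itself was at 322, 419, 302 and 224 against 171, 210.1 and 259.8, a smaller rise (log2 fold change 0.53 ± 0.17, adjusted p = 0.018) that did not pass without HDE only run 1 lane 12 (adjusted p = 0.12). Clec4a2, an inhibitory lectin receptor of myeloid cells, was 1 of 4 genes whose scaled counts were under 87 in all 6 saline only libraries and at least 87 in all 4 HDE only libraries, at 47.2 to 75.3 (median 62.6) against 161, 237, 94.5 and 137. The other 3 were C3ar1, Cd33 and Slamf7.

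Receptors for immunoglobulin G and receptors that restrain myeloid cells rose in 8 of 11 tested (72.7% against 30.2% over all genes). Their median log2 fold change was 0.93. However, 3 of the 11 averaged under 87 scaled counts in the saline only libraries and reached the count minimum through other libraries. Of these 3, 2 rose, and the other 8 gave 6 rises. Under TMM scaling 5 of the 11 rose and with positive control scaling 4. Without HDE only run 2 lane 11, 6 of the 11 rose, with a median of 0.58. The calls of the activating receptors Fcgr4 (adjusted p = 0.095) and Lilra5 (adjusted p = 0.26) were then lost. Fcgr2b, the inhibitory IgG receptor, was at 1427, 2031, 1174 and 684 in HDE only and at 201, 277 and 319 in saline only libraries (log2 fold change 2.29 ± 0.28, adjusted p = 3.0e-06). Fcgr3, an activating IgG receptor, was at 504, 858, 727 and 317 against 129.9, 186 and 194 (log2 fold change 1.75 ± 0.25, adjusted p = 1.3e-05). Both kinds of receptor thus had all HDE only values above all saline only values. Cd200r1, which restrains myeloid cells when it binds Cd200, was at 438, 623, 317 and 94.4 against 64.7, 73.3 and 129.9 (log2 fold change 2.08 ± 0.32, adjusted p = 3.1e-05), with run 2 lane 12 again inside the saline only range. Cd33, a sialic acid receptor, was at 214, 237, 182 and 89 against 63.6, 66.8 and 78.3 (log2 fold change 1.38 ± 0.19, adjusted p = 1.1e-05), and Slamf7, a receptor of the Slam family found on plasma cells, NK cells and macrophages, at 220.2, 214, 275 and 142 against 55.5, 69.6 and 80.4 (log2 fold change 1.64 ± 0.20, adjusted p = 3.0e-06).

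Of 18 tested complement genes 9 rose (50.0% against 30.2% over all genes) and none fell, with a median log2 fold change of 0.40. Of the 18, 1 averaged under 87 scaled counts in the saline only libraries, and it rose. C3, the central component, was at 2583, 2296, 2600.1 and 2444 in HDE only and 886, 1236 and 1330.4 in saline only libraries (log2 fold change 1.11 ± 0.14, adjusted p = 3.0e-06). As with Ccl11, the 4 HDE only values lay close together and apart from the saline only group. C3ar1, the receptor for the C3a fragment, was at 381, 285, 181 and 118 against 43.7, 63.2 and 73.5 (log2 fold change 1.97 ± 0.24, adjusted p = 3.0e-06). Cfb, which forms the convertase of the alternative pathway, rose by 1.43 ± 0.22 (adjusted p = 2.9e-05), and C1qb, a chain of the first component made by macrophages, by 1.17 ± 0.20 (adjusted p = 1.1e-04). C5ar1, the receptor for C5a, was at 138, 116, 44.8 and 130 against 99.6, 152 and 198 and did not pass (log2 fold change -0.47 ± 0.31, adjusted p = 0.3).

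Of 14 tested genes of lysosomes and phagosomes 9 rose (64.3% against 30.2% over all genes) and none fell. Their median log2 fold change was 0.55. Under TMM scaling 5 of the 14 rose, with positive control scaling 4 and in run 2 alone 5. Ctss (cathepsin S), which cleaves the invariant chain of class II molecules, was at 9391, 15344, 8351 and 3498 in HDE only and 1704, 1968 and 2428 in saline only libraries, with no overlap (log2 fold change 2.19 ± 0.29, adjusted p = 6.6e-06). Its run 2 lane 12 value of 3498 was the lowest of the 4. Cd63, a membrane protein of late endosomes, was at 4118, 4120.4, 4938 and 2469 against 1805, 2068 and 2292 (log2 fold change 0.92 ± 0.16, adjusted p = 1.0e-04), and Lamp1, a main protein of the lysosome membrane, at 4737, 5072, 4444 and 3706 against 2980.2, 3383 and 3677 (log2 fold change 0.42 ± 0.10, adjusted p = 0.0013), both without overlap. Ncf4, a subunit of the phagocyte oxidase, rose by 1.31 ± 0.24 (adjusted p = 1.5e-04). Tfeb, a transcription factor of lysosomal genes, was just outside the threshold (log2 fold change 0.68 ± 0.27, adjusted p = 0.0501), as was Mertk, a receptor for dying cells (log2 fold change 0.53 ± 0.21, adjusted p = 0.0501), while H2-D1, a class I molecule, was just inside it (adjusted p = 0.048).

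Genes of granulocytes were mostly under the count minimum, and 4 of 17 were tested. Lcn2 (lipocalin-2), which withholds iron siderophores from bacteria and is made by neutrophils and airway epithelium, was at 5009, 7693, 9742 and 3584 in HDE only and at 1259, 1554 and 2063 in saline only libraries, without overlap (log2 fold change 2.02 ± 0.26, adjusted p = 4.5e-06). Fpr2, a formyl peptide receptor, was at 524, 596, 288 and 482 against 227, 263 and 327 (log2 fold change 0.80 ± 0.20, adjusted p = 0.0036), with run 2 lane 11 inside the saline only range. S100a8, an abundant protein of neutrophils, was at 813, 363, 421 and 475 against 238, 329.6 and 707, the groups overlapped and the test did not pass (log2 fold change 0.47 ± 0.27, adjusted p = 0.21). The 5 neutrophil markers (S100a8, Csf3r, Cxcr2, Mpo and Elane) summed to 476 to 1071 scaled counts in HDE only and to 347 to 822 in saline only libraries.

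Among genes of type 2 responses, which act against parasites and in allergy, 4 of 7 tested rose (57.1% against 30.2% over all genes) and none fell. Besides Chil3, Ccl11 and Mrc1, given above, this was Il13ra1, a chain of the receptor for interleukin 13, at 669, 517, 587 and 426 against 395, 441 and 479 (log2 fold change 0.33 ± 0.11, adjusted p = 0.021). The rise of Il13ra1 was small, did not pass without HDE only run 1 lane 10 (adjusted p = 0.15) or run 2 lane 11 (adjusted p = 0.069), and had a log2 fold change of -5.8e-05 under TMM scaling. Under TMM scaling, with positive control scaling, with DESeq2 and in run 2 alone, 2 of the 7 genes rose. Mrc1 did not pass in any of these fits, with an adjusted p of 0.31 under TMM scaling. The cytokines Il4, Il5 and Il13 of this group were under the count minimum.

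Of the B cell genes, 20 of 26 were under the count minimum. Of the 6 tested, 5 rose (83.3% against 30.2% over all genes) and none fell, with a median log2 fold change of 1.36. However, Cd22 and Btk averaged under 87 scaled counts in the saline only libraries. The count minimum took them in through their higher values elsewhere. The other 4 gave 3 rises. Ms4a1 (CD20), a surface protein of B cells, was at 335, 459, 356 and 157 in HDE only and at 77.4, 101 and 106 in saline only libraries, without overlap (log2 fold change 1.77 ± 0.33, adjusted p = 1.9e-04). Cd79b, a signaling chain of the B cell receptor, was at 368, 336, 317 and 215 against 91.8, 118 and 158, also without overlap (log2 fold change 1.31 ± 0.25, adjusted p = 2.6e-04). Cd22, an inhibitory receptor of B cells, was at 266, 164, 141 and 44.5 against 26.4, 50.2 and 73.7 (log2 fold change 1.62 ± 0.34, adjusted p = 5.6e-04), and its run 2 lane 12 value lay within the saline only range. Cd37, a tetraspanin of B cells and other leukocytes, was at 368, 404, 406 and 153 against 107, 126 and 138 (log2 fold change 1.41 ± 0.21, adjusted p = 2.1e-05), and Btk, the kinase of B cell receptor signaling that myeloid cells also use, at 204, 164, 117 and 103 against 58.2, 68.2 and 87.3 (log2 fold change 1.07 ± 0.19, adjusted p = 1.1e-04).

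Genes that organize lymphoid tissue rose in 4 of 7 tested (57.1% against 30.2% over all genes), with a median log2 fold change of 0.82. However, 3 of the 7 averaged under 87 scaled counts in the saline only libraries and reached the count minimum through other libraries, and all 3 rose. The other 4 gave 1 rise. Il7r, the receptor for interleukin 7 of lymphocytes and their inducer cells, was at 323, 424, 317 and 69.4 in HDE only and at 61.1, 87.1 and 98.5 in saline only libraries (log2 fold change 1.74 ± 0.29, adjusted p = 8.8e-05). The first 3 HDE only values were all above the saline only range and that of run 2 lane 12 was within it. Cxcl13, the chemokine that draws B cells into follicles, was at 148, 270, 155 and 71.2 against 33.2, 61.4 and 118 (log2 fold change 1.21 ± 0.39, adjusted p = 0.017), and Ltb (lymphotoxin beta), which signals to stromal cells of lymphoid tissue, at 136, 202, 148 and 78.3 against 63.6, 80.4 and 95.6 (log2 fold change 0.82 ± 0.25, adjusted p = 0.012). Neither passed without HDE only run 1 lane 12 (adjusted p = 0.11 and 0.073). Cd83, a marker of activated dendritic cells and B cells, rose by 1.01 ± 0.23 (adjusted p = 0.0015).

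T cell genes were mostly under the count minimum, with 5 of 32 tested. Cd3g, a chain of the T cell receptor complex, was at 79.7, 131, 100.3 and 71.2 against 55.5, 73 and 87.1 and did not pass (log2 fold change 0.42 ± 0.20, adjusted p = 0.12). The 5 markers of T cells (Cd3d, Cd3e, Cd3g, Cd4 and Cd8a) summed to 226 to 490 scaled counts in HDE only and to 196 to 268 in saline only libraries. Of the NK and cytotoxic genes 1 of 28 was tested, and the 3 NK markers summed to 80.1 to 212 and 98.1 to 217.

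Adhesion molecules by which leukocytes enter and stay in tissue rose in 10 of 15 tested (66.7% against 30.2% over all genes). Their median log2 fold change was 0.87. Of the 15, 1 averaged under 87 scaled counts in the saline only libraries, and it rose. Itgb2 (CD18), the beta chain shared by the leukocyte integrins, was at 1407, 1327, 1436 and 507 in HDE only and 343, 427 and 488 in saline only libraries (log2 fold change 1.48 ± 0.21, adjusted p = 1.1e-05). Selplg, the ligand of selectins on leukocytes, was at 576, 643, 685 and 436 against 245, 327 and 362 (log2 fold change 0.87 ± 0.15, adjusted p = 7.7e-05), and Cd84, a Slam receptor of B cells and myeloid cells, at 461, 507, 729 and 274 against 119, 161 and 229 (log2 fold change 1.58 ± 0.22, adjusted p = 1.1e-05). None of these 3 overlapped between the groups.

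**Figure D3:**
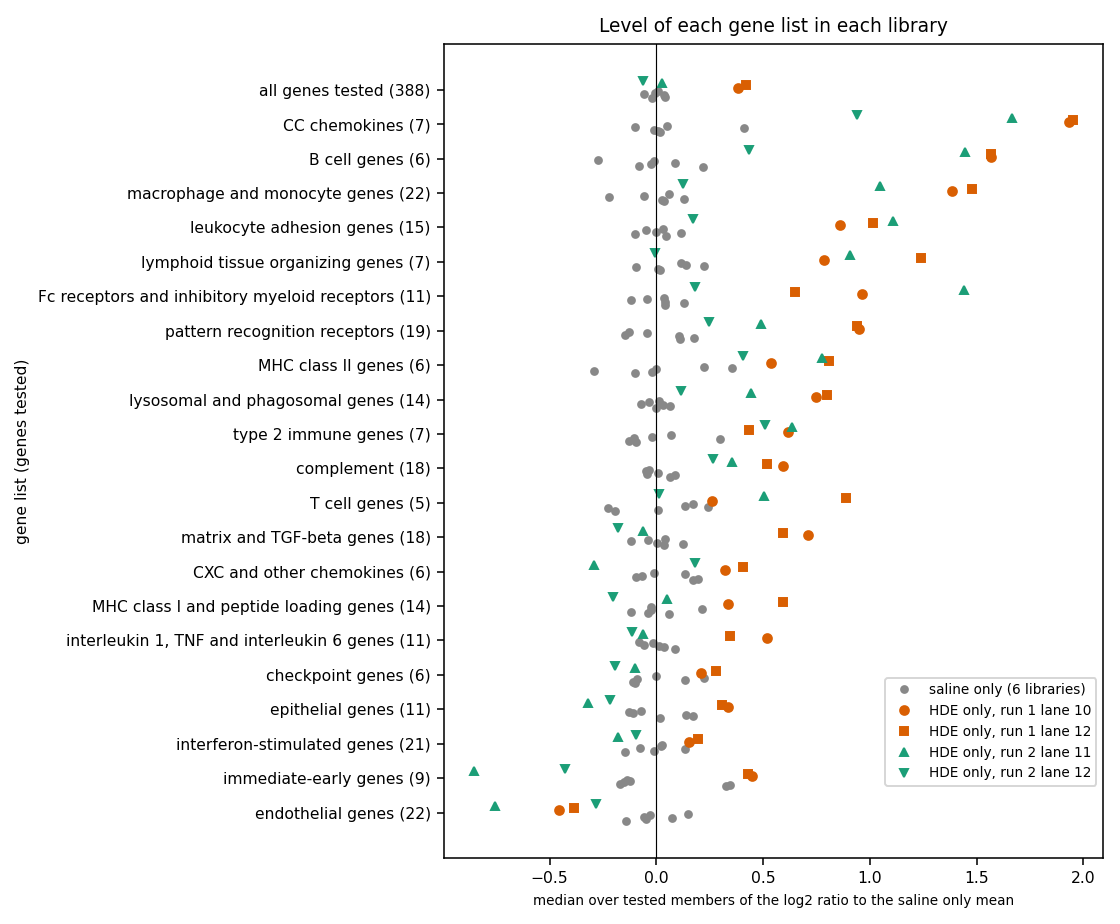
For each gene list with at least 5 tested members (number in brackets), the horizontal axis gives the median over its members of log2(scaled count + 1) in a library minus the mean of the 6 saline only libraries. Symbols are as in the plot of leading genes. CC chemokines lie farthest to the right in all 4 HDE only libraries and endothelial genes lie left of all saline only libraries in all 4. The HDE only libraries of run 2 lie left of those of run 1 for many lists, as does the median of all 388 genes, at 0.38 and 0.42 in run 1 and at 0.03 and -0.06 in run 2.

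For antigen presentation by class II molecules, 4 of 6 tested genes rose (66.7% against 30.2% over all genes), with a median log2 fold change of 0.55. Without HDE only run 2 lane 11 this was 2 of 6, under TMM scaling 1 and with positive control scaling 0. Cd74, the invariant chain, was at 12636, 13093, 11673 and 9761 in HDE only and 6538, 7912 and 9756 in saline only libraries (log2 fold change 0.55 ± 0.14, adjusted p = 0.0044), and H2-DMb2, which loads peptides, at 254, 285, 364 and 164 against 95.6, 106 and 135 (log2 fold change 1.29 ± 0.24, adjusted p = 1.8e-04). For class I and peptide loading, 3 of 14 rose (21.4% against 30.2% over all genes) and 1 fell, with a median of 0.23 that was 0.38 without HDE only run 2 lane 12, and none rose under TMM or positive control scaling. H2-K1, a classical class I molecule, was at 2558, 2834, 2813 and 1807 against 1288, 1617 and 2236 (log2 fold change 0.56 ± 0.14, adjusted p = 0.0044), while Mill2, a class I-like molecule, was lower at 78.2, 75.7, 63 and 94.4 against 103, 123 and 137 (log2 fold change -0.65 ± 0.18, adjusted p = 0.0077). Cd274 (PD-L1), the ligand that restrains T cells through Pdcd1, was at 582, 527, 614 and 264 against 171, 216 and 334 (log2 fold change 1.10 ± 0.21, adjusted p = 2.6e-04).

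Interferon-stimulated genes stayed near the median of all genes. Of 21 tested, 2 rose (9.52% against 30.2% over all genes) and 1 fell. The median log2 fold change of the 21 was 0.02 against 0.16 over all genes. Ifit2, an RNA-binding protein induced by interferon, was at 107, 111, 113 and 141 in HDE only and 144, 155 and 205 in saline only libraries (log2 fold change -0.50 ± 0.17, adjusted p = 0.026). All 4 HDE only values were below all saline only values, yet the call was lost without any of 5 single libraries, the largest adjusted p being 0.083 without HDE only run 1 lane 10. Among genes of the interleukin 1, TNF and interleukin 6 families, 4 of 11 rose (36.4% against 30.2% over all genes) and 1 fell. Their median log2 fold change was 0.14, near that of all genes. Under TMM scaling 2 of the 11 rose, with positive control scaling 1 and in run 2 alone 0. Il1rn, the natural antagonist of interleukin 1, was at 408, 608, 314 and 160.2 against 104, 148 and 197 (log2 fold change 1.35 ± 0.31, adjusted p = 0.0015), and Tnfrsf1b, a TNF receptor of leukocytes, at 478, 459, 189 and 125 against 99.9, 113 and 171 (log2 fold change 1.34 ± 0.34, adjusted p = 0.0036). For both, the HDE only values of run 1 exceeded those of run 2.

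Endothelial genes, listed together with vessel ligands such as Vegfa and Angpt1, were the one group that fell. Of 22 tested, 9 fell (40.9% against 4.38% over all genes), none rose, and all 22 had a log2 fold change below 0, with a median of -0.44. Icam2, an adhesion molecule that endothelium carries constantly, was at 956, 903, 782 and 1246 in HDE only and at 1409, 1509 and 1596 in saline only libraries (log2 fold change -0.64 ± 0.17, adjusted p = 0.0054). Dll4, a Notch ligand of vessel sprouts and arteries, was at 159, 131, 123 and 134 against 159, 246 and 299 (log2 fold change -0.81 ± 0.22, adjusted p = 0.0053). The groups did not overlap for Icam2, and for Dll4 run 1 lane 10 reached the lowest saline only value. Kdr, the main receptor for Vegfa, was at 859, 951, 595 and 1069.9 against 1209.9, 1278 and 1539 (log2 fold change -0.59 ± 0.18, adjusted p = 0.013), and Vegfa, the growth factor itself, which alveolar epithelium makes, at 2135, 2162, 1246 and 2102 against 2489.6, 2959 and 3445 (log2 fold change -0.63 ± 0.18, adjusted p = 0.01). Both were below all saline only libraries in all 4 HDE only libraries and lowest in run 2 lane 11.

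Tek (Tie2), the receptor for angiopoietins, was at 898, 954, 964 and 1494 in HDE only and 1346, 1643 and 1973 in saline only libraries (log2 fold change -0.62 ± 0.21, adjusted p = 0.022). Lyve1, a hyaluronan receptor of lymphatic endothelium and of some tissue macrophages, was at 424, 328, 351 and 819 against 654, 831 and 1530.4 (log2 fold change -0.97 ± 0.29, adjusted p = 0.013). In both, 3 HDE only libraries were below the saline only group and run 2 lane 12 lay within it. Eng (endoglin), a coreceptor for TGF-beta, was at 591, 674, 389.6 and 641 against 788, 840.1 and 915 (log2 fold change -0.57 ± 0.21, adjusted p = 0.042), and Pecam1 (CD31), the junction protein of endothelium, at 2739, 2551, 2259 and 3541 against 3405, 3664 and 4272 (log2 fold change -0.44 ± 0.15, adjusted p = 0.025). Cdh5, the cadherin of endothelial junctions, was at 1137, 1153, 761 and 1161 against 1224, 1456 and 1559.7 and did not pass (log2 fold change -0.45 ± 0.20, adjusted p = 0.091). The falls were small and rested much on single libraries. Without HDE only run 2 lane 11, 3 of the 22 genes fell, with adjusted p of 0.054 for Vegfa, 0.067 for Kdr, 0.067 for Tek, 0.054 for Lyve1, 0.11 for Pecam1 and 0.16 for Eng, while the median stayed below 0 at -0.34. Tek, Lyve1, Eng, Pecam1 and Nrp1 also lost their call without other single libraries, with adjusted p up to 0.083 for Tek without HDE only run 1 lane 10, 0.057 for Lyve1, 0.08 for Pecam1 and 0.074 for Nrp1 without run 1 lane 12, and 0.074 for Eng without run 1 lane 10. The 6 endothelial markers (Pecam1, Cdh5, Kdr, Eng, Tek and Icam2) summed to 5751 to 9152 scaled counts in HDE only and to 9566 to 11430 in saline only libraries, with no overlap. The median of the 22 genes was below 0 under every scaling tried, from -0.44 to -0.71, with 1 to 20 of them called lower. Markers of leukocytes rose in the same libraries, and the part of such changes in cell numbers in these falls was not tested.

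**Figure D4:**
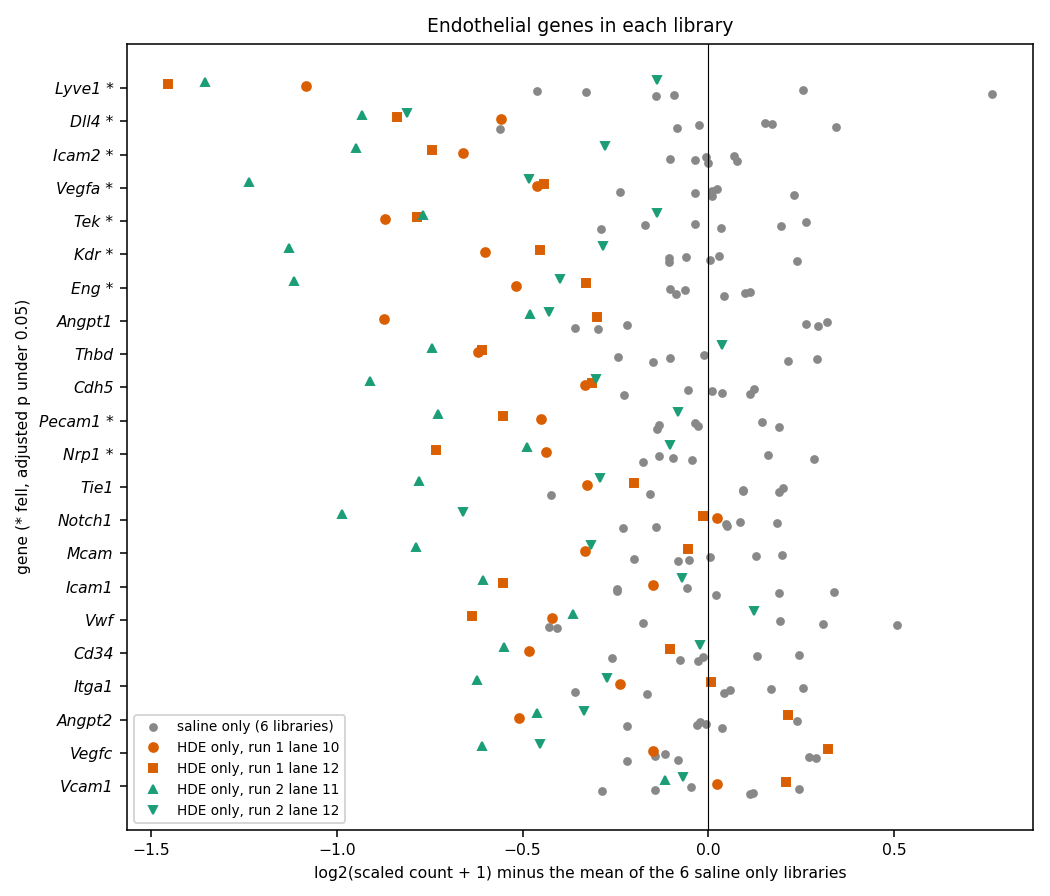
Log2(scaled count + 1) of the 22 tested endothelial genes in each library, minus the mean of the 6 saline only libraries, ordered by fold change, with an asterisk for the 9 that fell. Symbols are as in the plot of leading genes. The HDE only library of run 2 lane 11 (green triangle pointing up) holds the lowest value for many of the genes, and that of run 2 lane 12 lies within the saline only values for Lyve1, Tek and Pecam1.

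Epithelial genes showed no common direction. Of 11 tested, 2 rose (18.2% against 30.2% over all genes) and 1 fell. The median of 0.06 was positive in this scaling but negative with TMM, DESeq2, positive control or all housekeeping gene scaling and with background subtraction. Muc1, a membrane mucin of airway and alveolar epithelium, was at 3921, 3343, 3215 and 2975 in HDE only and at 2043, 2310.2 and 2610.5 in saline only libraries, without overlap (log2 fold change 0.54 ± 0.11, adjusted p = 5.7e-04). Itga6, an integrin chain that binds laminin on epithelium and endothelium, was at 296, 278, 223 and 301 against 338, 435 and 548, also without overlap and lower (log2 fold change -0.69 ± 0.17, adjusted p = 0.0028). Cdh1, the cadherin of epithelial junctions, was at 1621, 1398, 1259 and 1451 against 1312, 1556 and 1856 (log2 fold change -0.14 ± 0.10, adjusted p = 0.32). The 4 epithelial markers on the panel (Epcam, Cdh1, Muc1 and Cxcl15) summed to 18450 to 40060 and 20380 to 30150 scaled counts. Among the other falls, Pvr, a nectin-like adhesion molecule and ligand of Tigit, was at 85.5, 141, 56.4 and 78.3 against 105, 141 and 157 (log2 fold change -0.66 ± 0.20, adjusted p = 0.014) and did not pass without HDE only run 2 lane 11 (adjusted p = 0.083).

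Of 18 tested matrix and TGF-beta genes, 5 rose (27.8% against 30.2% over all genes) and none fell. Their median of 0.27 was -0.16 under TMM scaling, 0.42 without HDE only run 2 lane 11, 0.46 without run 2 lane 12 and -0.083 in run 2 alone. Vim (vimentin), an intermediate filament of mesenchymal cells and leukocytes, was at 4168, 4118, 3348 and 2884 in HDE only and at 2217, 2644 and 2853 in saline only libraries (log2 fold change 0.47 ± 0.13, adjusted p = 0.0062). Tgfb1 was at 588, 494, 460 and 361 against 308, 338 and 425 (log2 fold change 0.47 ± 0.13, adjusted p = 0.0072) and did not pass without HDE only run 1 lane 10 (adjusted p = 0.055), and its receptor Tgfbr1 was at 846, 916, 751 and 454 against 368, 432 and 462 (log2 fold change 0.79 ± 0.14, adjusted p = 1.5e-04). Fn1 (fibronectin) was at 2722, 2354, 1176 and 1378 against 1058, 1373 and 1530.3 and Col3a1, a fibrillar collagen, at 1392, 1405, 706 and 833 against 567, 695 and 1107. Neither passed (adjusted p = 0.082 and 0.15), and for both the HDE only values of run 1 were above all saline only values while those of run 2 lay inside the saline only range. Immediate-early genes, which respond within minutes to handling as well as to stimuli, had different levels in the 2 runs. The median of the 9 tested was 0.45 and 0.43 in the HDE only libraries of run 1, -0.85 and -0.43 in those of run 2, 0.33 and 0.35 in the saline only libraries of run 1 and -0.17 to -0.12 in those of run 2, and 1 of the 9, Tnfaip3, rose (log2 fold change 0.56 ± 0.19, adjusted p = 0.023), a call lost without HDE only run 1 lane 10 (adjusted p = 0.071) or run 1 lane 12 (adjusted p = 0.15).

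The study lists 17 immune genes and 11 genes of cancer progression, chosen on these same samples, so their direction here is not independent evidence. Of the immune genes 14 rose and none fell. Beside those given above this includes Jak2, a kinase of cytokine receptors, at 594, 621, 554 and 532 against 395, 426 and 500.2 (log2 fold change 0.40 ± 0.10, adjusted p = 0.0025), while Cxcr4, the receptor for Cxcl12, did not pass (log2 fold change 0.33 ± 0.15, adjusted p = 0.091). Of the genes of cancer progression 6 rose (Cd274, Lamp1, Muc1, Tgfb1, Tgfbr1 and Vim), Kdr and Vegfa fell, and Cd9, a tetraspanin (log2 fold change 0.12 ± 0.13, adjusted p = 0.55), Cdh1 and Fn1 did not pass.

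The HDE only mice differed among themselves in how far these genes moved. For 101 of the 117 genes that rose, the lowest of the 4 HDE only values was that of run 2 lane 12, and for 52 it lay within or below the saline only range. The median over the 117 genes of the log2 ratio to the saline only mean was 1.13 and 1.21 in the HDE only libraries of run 1, 1.01 in run 2 lane 11 and 0.29 in run 2 lane 12, where the median over all 388 genes was 0.38, 0.42, 0.03 and -0.06. Since these genes were chosen with the same libraries, the 4 values describe the spread only. Among genes that passed, Trem2, Cd200r1, Il7r, Cd22 and Tnfrsf1b had the largest spread of log2 values within the HDE only group. Ccl8, Ccl11, Chil3, Lcn2 and C3, in contrast, were above all saline only libraries in run 2 lane 12 too. Without this library and without saline only run 2 lane 3, whose raw table entry carries a quality mark, 135 genes rose and 16 fell.

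On the first principal component of the 388 genes, which held 64.3% of the variance of the 10 libraries, the HDE only libraries scored 11.1, 12.1, 9.21 and -0.15 and the saline only libraries -6.52 to -4.10. The difference was 13.5 (two-sided exact permutation p = 0.0095, 210 relabellings). The groups did not overlap, but run 2 lane 12 lay nearer to the saline only libraries than to the other HDE only libraries. The second component, with 14.7% of the variance, placed the HDE only libraries of run 1 at -3.44 and -4.14 and those of run 2 at 7.41 and 4.96, and did not separate the groups (exact permutation p = 0.40, two-sided).

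The 117 rises had a log2 fold change above 0 in each run alone, but they were called on both runs together, so this direction is not independent of the choice. Run 1, with 2 HDE only and 2 saline only libraries, called 129 genes higher (33.2%) and 4 lower (1.03%), and run 2, with 2 and 4, called 53 higher (13.7%) and 19 lower (4.9%). Of the genes higher in run 2, 49 were also higher in run 1, which is 92.5% of the run 2 calls and 38.0% of the run 1 calls, and no gene was called in opposite directions. Of the genes called lower, 1 was shared. The libraries of the raw table carry no sex label, so sex was not part of the fits within a run. If its columns follow the order of the samples, the HDE only mice of run 2 were all males and its saline only mice all females. Sex and HDE could then not be told apart in run 2. Ccl8 had a log2 fold change of 4.10 in run 1 and 3.69 in run 2, Chil3 of 3.66 and 3.75, Ccl11 of 3.06 and 2.83 and Icam2 of -0.74 and -0.56. Tnfrsf1b, in contrast, had 2.17 (adjusted p = 0.0046) in run 1 and 0.27 (adjusted p = 0.41) in run 2. Across the 388 genes the 2 sets of fold changes, which share no library, had a Pearson correlation of 0.81 and a Spearman correlation of 0.69, where genes are not independent of each other, and 161 genes had opposite signs.

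**Figure D5:**
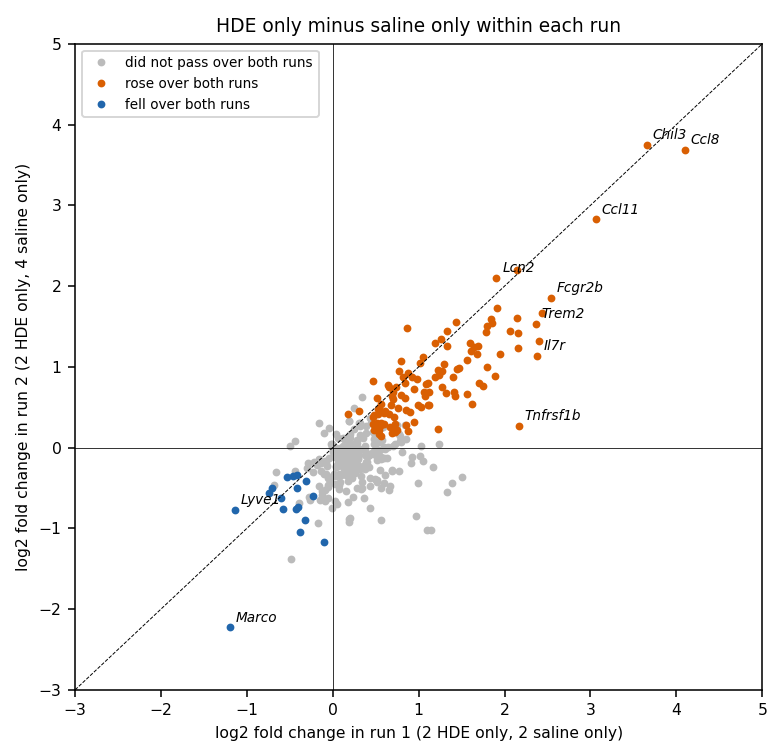
Log2 fold change of each of the 388 genes (HDE only minus saline only) in run 1 on the horizontal and in run 2 on the vertical axis, with equality as a dashed line. All 117 genes that rose over both runs are right of and above 0, and all 17 that fell are left of and below 0, as genes called on both runs together. Many genes that did not pass are above 0 in run 1 and below 0 in run 2.

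Sex could be read from the labels of another table, which holds these counts with values under 87 raised to 87. On these counts, 121 genes rose (31.2%) and 12 fell (3.09%) without and 106 rose (27.3%) and 12 fell (3.09%) with sex as a term. Of the calls with sex as a term, 102 rises and all 12 falls were also calls of the raw counts. With sex as a term 17 of the 22 macrophage and monocyte genes, 5 of the 6 B cell genes and 4 of the 7 CC chemokines rose, and 9 of the 22 endothelial genes fell. The genes that organize lymphoid tissue rose in 2 of 7, and none of the macrophage and monocyte genes fell. Marco had a log2 fold change of -0.63 (adjusted p = 0.17) with sex as a term, against -0.77 (adjusted p = 0.058) without it on the same table, and Cd36 did not pass with sex as a term either (adjusted p = 0.078).

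The same contrast in mice that had also received 100 mg/kg of NNK (5 with HDE and 6 with saline) can be set beside these values. Ccl8 had a log2 fold change of 4.02 ± 0.41 without and 3.57 ± 0.39 with NNK. For Chil3 these values were 3.63 ± 0.51 and 3.27 ± 0.49, and for Icam2 -0.64 ± 0.17 and -0.49 ± 0.16. The edgeR test of the difference between the effects without and with NNK passed for 0 of 388 genes (0.0%), and 4 genes (1.03%) had an unadjusted p under 0.05. These included Itga6, which had -0.69 ± 0.17 without and -0.20 ± 0.15 with NNK (unadjusted p of the difference 0.042), and H2-T23, a class I molecule, with 0.50 ± 0.24 and -0.20 ± 0.22 (unadjusted p of the difference 0.04). For Marco the values were -1.59 ± 0.34 and -0.73 ± 0.29 (unadjusted p of the difference 0.061). A p that misses the threshold does not show that the effects are equal.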

How the data were processed

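Left lung RNA of 21 mice (50 ng, hybridized for 16 h) was counted by the authors on an nCounter Sprint and processed with nSolver. The deposited counts are raw counts of 784 probes (750 endogenous genes, 20 housekeeping genes, 8 negative and 6 positive controls) without scaling, and a further table of the same deposited counts with values under 87 raised to 87, which carries sex and replicate number. Group, run and lane name the libraries of the raw table. The members, the gene lists and the tests were chosen with earlier results of these data known.

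As in the methods of the study, scaling was to 4 housekeeping genes (Eef1g, Oaz1, Rpl19 and Sdha, geometric mean), which were not tested. The 388 genes whose raw counts averaged 87 or more over the 21 libraries were tested in R 4.3.3 by the robust quasi-likelihood fit of edgeR 4.0.16 on all 21 libraries with a mean for each of the 4 groups, which thus share 1 estimate of the spread, with Benjamini-Hochberg adjustment and a threshold of 0.05. Standard errors were obtained from the F statistics, as the fold change on the log2 scale over the root of F. Principal components used log2(scaled count + 1) of the 10 libraries, centred by gene, and an exact permutation test. On simulated counts, changes of 1.25, 1.5, 2 and 4-fold were recovered in 20, 56, 98 and 100% of cases. Promoters were those of RefSeq for GRCm38.p6, with an entry for 291 of the 388 genes, and the letters searched in them were settled after longer patterns for NF-kB and STAT6 had been tried.

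The rule for naming genes took the 20 largest rises and 12 largest falls, from each list up to 4 members that passed, by adjusted p, and the member with the largest fold change that did not pass, the genes of 2 lists of the study, genes crossing 87 scaled counts, cell type markers, the 5 genes of the widest spread and 2 genes on each side of the threshold. Not all genes taken by the rule are named, some items are not reported here, and Nrp1, Cd36, Herc6, Fcgr4, Lilra5 and the genes under the count minimum were added after their values were seen. Alternatives were other scalings (TMM, all housekeeping genes, positive controls, DESeq2 1.42.0), background subtraction, other count minimums, limma 3.58.1 with pseudocounts of 1 and 20, the 10 libraries alone, a term for the run, run 1 or run 2 alone, the table with the floor of 87 with sex or with the replicate number in the fit, and leaving out libraries. Libraries were taken as separate mice, and p values measure the spread between them.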

Additional observations from a re-analysis of the deposited data

Results flagged for a closer look

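Among 113 named genes, each looked at in both groups, 17 values stood apart from the rest of their group, when the gap to the nearest other library was compared with the range of the group. Chance gives about 1 such value in 20 groups and 226 pairs of a gene and a group were looked at. This rate does not apply to the 17, because some of the 113 genes were taken for their wide spread and all share the same libraries.

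In the HDE only group the library of run 2 lane 12 stood apart for 6 genes, each time on the side of the saline only level. It had 35.6 scaled counts of Trem2 against 286 to 323 in the other 3 libraries, 109 of Itgax against 382 to 419, 507 of Itgb2 against 1327 to 1436 and 153 of Cd37 against 368 to 406. It was the highest for Tek at 1494 against 898 to 964 and for Ifit2 at 141 against 107 to 113. The library of run 2 lane 11 was the lowest for Vegfa at 1246 against 2102 to 2162 and for Cdh5 at 761 against 1137 to 1161.

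In the saline only group the library of run 2 lane 4 had 4145 scaled counts of Chil3 against 1221 to 2232 in the other 5, 129.9 of Fcgr3 against 182 to 194 and 138 of Mertk against 168 to 185. Run 1 lane 6 was the highest for Kdr at 1539 and for Col3a1 at 1107, run 2 lane 3 for S100a8 at 707 and for Tgfb1 at 425, and run 2 lane 5 for H2-D1 at 5440.0, while run 2 lane 5 was the lowest for Selplg at 245. The edgeR test of the difference between the effects of HDE without and with NNK passed for none of the 388 genes (4 at an unadjusted p under 0.05).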

How the results depend on the processing

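Of the 92 named genes that passed, 3 (Il13ra1, Mill2 and Pvr) changed direction under an alternative. The 117 rises and 17 falls became 59 and 35 under TMM scaling, 33 and 2 with positive control scaling, 68 and 11 with at least 87 counts in every library (221 genes tested), 86 and 66 with DESeq2, 129 and 4 in run 1 alone and 53 and 19 in run 2 alone. Without 1 library the rises were 97 to 139 and the falls 7 to 21, with 7 falls without HDE only run 2 lane 11. The median over all genes of the log2 fold change was 0.16 (0.09 to 0.25 without 1 library) and -0.17 under TMM scaling. On the first principal component the difference was 16.6 in run 1 alone (exact permutation p = 0.333) and 12.3 in run 2 alone (exact permutation p = 0.133), which are the smallest p that 2 against 2 and 2 against 4 libraries allow, and 12.6 to 16.2 without 1 library.

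Signs turned for Cd9 (-0.14 under TMM scaling, -0.10 with positive controls, -0.062 with DESeq2, -0.049 in run 1 alone), Csf1r (-0.066, TMM), Il13ra1 (-5.8e-05, TMM), Fn1 (-0.11, run 2 alone), Mill2 (0.15, 0.17 and 0.085 on the floor table without a block, with the replicate block and with sex) and Pvr (0.011 and 0.021 without and with the block). Mill2 and Pvr lie near the floor of 87. For the replicate block, same-numbered samples correlated at 0.36, 0.06, -0.14 and 0.19, so the numbers do not pair the mice, and the block gave 103 rises and 13 falls against 121 and 12 without it. Of the 134 calls, 84 rises and 5 falls passed in all 10 fits without 1 library, and 33 rises and 1 fall of these also under the 4 other scalings.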

Other observations

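Several genes of cell types that are scarce in lung lay under the count minimum and were not part of the comparison above. They were chosen after their values were seen, and the edgeR fit without a count minimum (766 genes) called 49 of these 378 genes higher and 0 lower. The saline only values of these genes lie at or near the negative controls (scaled means of 7.35 to 26.4 in these libraries), so no fold change is given. This fit took no background off, while the scaled negative control means were 33.1 and 57.4 in the HDE only libraries of run 1. Its median log2 fold change was 0.41, against 0.16 over the 388 genes. What part background had in its adjusted p values was not tested. Values under about 100 scaled counts lie near the negative controls, whose highest scaled probe reached 83.3 in the HDE only library of run 1 lane 12, 46.4 in run 1 lane 10, 11.6 in run 2 lane 11 and 30.3 in run 2 lane 12.

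Ccr3 and Prg2, markers of eosinophils, were above all saline only values in all 4 HDE only libraries, given here as run 1 lanes 10 and 12 and run 2 lanes 11 and 12. Ccr3, the receptor for Ccl11, was at 49.3, 93.4, 72.9 and 78.3 against 4.96, 8.67 and 31.4 (lowest, median and highest) with saline only (adjusted p = 1.1e-04). Prg2, the major basic protein of eosinophil granules, was at 94.2, 85.8, 41.4 and 49.8 against 3.5, 19.3 and 35.9 (adjusted p = 9.7e-04). The 3 eosinophil markers Ccr3, Il5ra and Prg2 summed to 145 to 252 scaled counts in HDE only and to 17.5 to 90.2 in saline only libraries. Mast cell markers summed to 12.4 to 119 and 23.4 to 65.7.

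Ccr1, the receptor that Ccl6 and Ccl9 bind, was at 149, 225, 105 and 73 against 40.7, 45.1 and 61.4 (adjusted p = 4.1e-05). Irf4, a transcription factor of plasma cells and of macrophages in type 2 responses, was at 106, 124, 100.3 and 49.8 against 20, 22.5 and 29.1 (adjusted p = 2.8e-06), and Tnfrsf17, a receptor of plasma cells, at 76.8, 68.1, 58 and 51.6 against 12.2, 16.9 and 33 (adjusted p = 2.6e-04). The value of Tnfrsf17 in HDE only run 1 lane 12, 68.1, lay below the highest scaled negative control probe there, 83.3. With Prdm1, the other of the 2 plasma cell markers, it summed to 83.7 to 120 scaled counts in HDE only libraries. In saline only libraries the sum was 35.4 to 77, and Prdm1 alone overlapped between the groups. Cxcl3, an attractant of neutrophils, was at 184, 207, 136 and 35.6 against 15.7, 21.8 and 55.5 (adjusted p = 1.6e-04). The cytokines Il4, Il5 and Il13 did not pass in this fit (adjusted p = 0.36, 0.54 and 0.39). Herc6, an interferon-stimulated ubiquitin ligase, was the 1 gene among the 388 whose 4 HDE only values all lay above the saline only values without passing the test.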
